A study of Mus musculus with 24 samples.

Results

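Immunoglobulin transcripts were measured in mouse lung after an airway challenge with bacterial lipopolysaccharide (LPS), with and without an extract of the mugwort Artemisia argyi (AEAA). The genes described here are the rows of the expression table whose biotype marks an immunoglobulin gene and whose level was above 0 in at least 1 library. They were 234 of the 431 immunoglobulin rows and of the 78298 genes in the table. Of these, 12 were constant genes, 202 were variable segments and 20 were variable pseudogenes. No diversity or joining segment had a value above 0.

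All 24 mice were C57BL/6, 7 weeks old, and all 5 groups are whole lung from separate mice, without a transgene or deletion named in the labels. The LPS group (n = 5) received LPS at 5 mg/kg into the trachea on day 29 and no extract. The AEAA_low, AEAA_mid and AEAA_high groups (n = 5 each) received the same challenge after 28 days on the aqueous extract as drinking water, of 0.5 mg/mL in the low, 1 mg/mL in the mid and 1.5 mg/mL in the high group. For the Control group (n = 4) the protocol names saline, whereas the characteristics of its samples name LPS. All lungs were collected 8 h later, and no group received the extract alone, so the extract without LPS was not measured.

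An antibody is built from heavy and light chains, and each chain joins a variable part, which binds antigen, to a constant part, which sets the class. The genome holds many variable segments, of which each B cell and its descendants use a single rearranged heavy and light copy. The heavy constant gene decides the isotype: Ighm encodes IgM, the first class made, Ighd encodes IgD, found with IgM on naive B cells, Igha encodes the mucosal class IgA, and the Ighg genes encode IgG subclasses. Plasma cells hold far more of these transcripts per cell than resting B cells, so a small number of them can set the level in a whole tissue. In whole-lung RNA, fewer cells of a type and less RNA per cell cannot be told apart.

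The last 290 bases of the germline coding sequence are given below for 10 members, from the GENCODE M21 annotation of GRCm38, 5' to 3' on the coding strand, because the levels of these members carry the results that follow. The expression table was made on GRCm39, so the coordinates below belong to the reference sequences only. All 234 members were found there by identifier and symbol, 121 on chromosome 12 (heavy), 107 on chromosome 6 (kappa) and 6 on chromosome 16 (lambda). The first set holds 4 variable segments that stood far above all other libraries in 1 LPS library. Capitals mark the stretch from the last in-frame cysteine codon to the end, the part of the segment that enters the third complementarity-determining region. Ighv4-1 lies at chr12:113948282-113948796 (minus strand), Ighv1-82 at chr12:115952538-115953005 (minus strand), Igkv15-103 at chr6:68437440-68437925 (plus strand) and Igkv19-93 at chr6:68736297-68736780 (minus strand).
Ighv4-1: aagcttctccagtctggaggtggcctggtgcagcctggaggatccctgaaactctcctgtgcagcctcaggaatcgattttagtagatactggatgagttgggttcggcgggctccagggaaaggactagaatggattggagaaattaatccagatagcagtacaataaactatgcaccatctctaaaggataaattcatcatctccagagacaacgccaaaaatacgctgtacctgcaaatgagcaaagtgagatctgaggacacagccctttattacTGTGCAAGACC
Ighv1-82: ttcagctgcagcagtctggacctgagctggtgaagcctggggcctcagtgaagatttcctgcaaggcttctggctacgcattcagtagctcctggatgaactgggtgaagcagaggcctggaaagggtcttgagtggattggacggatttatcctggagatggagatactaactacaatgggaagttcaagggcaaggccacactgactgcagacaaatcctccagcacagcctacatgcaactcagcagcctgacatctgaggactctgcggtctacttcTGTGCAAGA
Igkv15-103: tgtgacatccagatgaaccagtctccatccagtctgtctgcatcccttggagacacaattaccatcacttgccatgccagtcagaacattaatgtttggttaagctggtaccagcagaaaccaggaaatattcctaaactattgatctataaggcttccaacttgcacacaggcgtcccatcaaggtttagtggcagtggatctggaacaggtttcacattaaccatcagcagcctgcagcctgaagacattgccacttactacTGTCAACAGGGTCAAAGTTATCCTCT
Igkv19-93: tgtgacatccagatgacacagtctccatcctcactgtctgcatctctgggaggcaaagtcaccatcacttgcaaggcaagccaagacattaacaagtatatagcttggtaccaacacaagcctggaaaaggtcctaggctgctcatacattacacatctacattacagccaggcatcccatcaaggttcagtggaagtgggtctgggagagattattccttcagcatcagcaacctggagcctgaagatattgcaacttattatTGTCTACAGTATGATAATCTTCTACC
The second set holds the heavy and the kappa variable segments with the highest mean level over all libraries, with the same marking. Ighv1-34 lies at chr12:114851190-114851660 (minus strand) and Igkv10-96 at chr6:68631963-68632442 (minus strand). The heavy segments end 9 or 11 bases after the start of that codon, whereas the 3 kappa segments run on for 26 bases.
Ighv1-34: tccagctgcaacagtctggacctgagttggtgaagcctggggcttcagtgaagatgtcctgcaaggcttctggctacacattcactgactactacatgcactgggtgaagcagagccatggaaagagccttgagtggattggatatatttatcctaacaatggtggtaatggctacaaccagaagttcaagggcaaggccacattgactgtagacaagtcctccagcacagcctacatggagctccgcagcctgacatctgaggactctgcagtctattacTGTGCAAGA
Igkv10-96: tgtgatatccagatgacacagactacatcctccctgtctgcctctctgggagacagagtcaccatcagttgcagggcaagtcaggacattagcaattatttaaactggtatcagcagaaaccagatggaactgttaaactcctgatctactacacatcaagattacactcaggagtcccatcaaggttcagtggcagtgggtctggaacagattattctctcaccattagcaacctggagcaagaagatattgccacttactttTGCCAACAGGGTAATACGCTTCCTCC
The third set holds the near-identical lambda pairs, with capitals on the bases that differ within a pair. Iglc2 at chr16:19198396-19200351 (minus strand) and Iglc3 at chr16:19065230-19065681 (minus strand) are 96.19% identical over the whole coding sequence, with 12 edits. Iglv1 at chr16:19085017-19085500 (minus strand) and Iglv2 at chr16:19260401-19260859 (minus strand) are 96.87% identical over theirs, with 11 edits, and the letters printed hold those that fall in the last 290 bases. How the authors' counting shared reads between such copies is not given in the sources used here, so the split of a level within a pair is uncertain.
Iglc2: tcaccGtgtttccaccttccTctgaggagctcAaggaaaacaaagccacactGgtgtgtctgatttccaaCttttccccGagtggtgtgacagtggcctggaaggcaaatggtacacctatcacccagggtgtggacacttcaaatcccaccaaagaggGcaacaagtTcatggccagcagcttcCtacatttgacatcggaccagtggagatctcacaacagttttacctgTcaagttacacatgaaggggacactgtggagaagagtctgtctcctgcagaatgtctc
Iglc3: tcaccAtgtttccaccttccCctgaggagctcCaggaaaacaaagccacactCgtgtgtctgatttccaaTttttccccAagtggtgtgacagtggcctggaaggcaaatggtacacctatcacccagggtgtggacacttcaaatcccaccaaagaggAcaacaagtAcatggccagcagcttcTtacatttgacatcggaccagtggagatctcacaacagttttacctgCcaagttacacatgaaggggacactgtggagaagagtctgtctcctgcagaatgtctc
Iglv1: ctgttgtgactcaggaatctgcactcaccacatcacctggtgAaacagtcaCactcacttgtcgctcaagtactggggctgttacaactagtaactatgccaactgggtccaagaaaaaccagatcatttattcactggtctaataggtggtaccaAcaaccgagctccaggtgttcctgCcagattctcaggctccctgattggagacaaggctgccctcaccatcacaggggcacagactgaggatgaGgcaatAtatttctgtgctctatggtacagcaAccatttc
Iglv2: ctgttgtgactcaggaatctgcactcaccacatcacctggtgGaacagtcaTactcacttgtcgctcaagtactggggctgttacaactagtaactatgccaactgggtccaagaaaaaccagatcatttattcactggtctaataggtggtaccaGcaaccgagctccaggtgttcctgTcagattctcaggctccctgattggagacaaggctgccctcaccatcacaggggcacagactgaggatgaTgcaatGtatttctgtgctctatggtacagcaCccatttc

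Levels are given as TPM, transcript abundances that are normalized to length and add up to the same total in each library. No read counts were used here, so depth is not known and a value of 0 is given as listed at 0. Several libraries stood apart from their labels or groups. Xist, the transcript of the inactive X chromosome, lay between 25.8 and 95.5 TPM in the 24 libraries, although the labels give male mice. The Y-linked Ddx3y, Uty and Eif2s3y were at or below 0.03 TPM, and the Y-linked Kdm5d lay between 0.02 and 0.15 TPM. Of the 20 challenged libraries, 7 had 0.09 to 1.37 TPM of Cxcl2, a chemokine that draws neutrophils, and the other 13 had 45.1 to 454 TPM. The club cell secretoglobin Scgb1a1 took 2.51 to 8.80% of all TPM in challenged libraries and 23.2 to 35.5% in control libraries. Because the total is fixed, each fit was repeated after median-of-ratios scaling, called scaled below. LPS replicate 3 stood apart in the immunoglobulin genes themselves, and the results that rest on it are given with and without it.

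Immunoglobulin transcripts were a small part of the lung RNA, and their sum was highest in LPS replicate 3. All members together took 0.153, 0.366, 1.59, 0.251 and 0.166% of TPM in the LPS libraries. They took 0.133 to 0.326% at the low dose, 0.168 to 0.3199% in mid-dose lungs, 0.0835 to 0.177% at the high dose and 0.08 to 0.152% in control lungs. The summed level of the constant genes was 542, 1228, 5092, 895 and 564 TPM in LPS lungs, 1017, 481, 948, 965 and 758 TPM at the low dose, 1028, 675, 818, 943 and 544 TPM at the mid dose, 678, 411, 346, 679.96 and 361 TPM at the high dose and 325, 630.3, 369 and 388 TPM in control lungs. LPS and control lungs overlapped in this sum, and so did high-dose and LPS lungs. The mean was 1664 ± 1937 TPM in LPS lungs (SD, n = 5) and 428 ± 137 TPM in control lungs (SD, n = 4). Without replicate 3 the LPS mean was 807 ± 323 TPM (SD, n = 4). The low, mid and high doses averaged 834 ± 220, 802 ± 196 and 495 ± 170 TPM (SD, n = 5 each). Within the challenged groups the libraries with low Cxcl2 had the highest constant sums apart from LPS replicate 3: 1228 TPM in LPS replicate 2 and 895 TPM in LPS replicate 4, 1017 TPM in the first AEAA_low library, 1028 TPM in the first and 943 TPM in the fourth AEAA_mid library, and 678 TPM in the first and 679.96 TPM in the fourth AEAA_high library. The part of Cxcl2 in these levels was not tested.

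**Figure D1:**
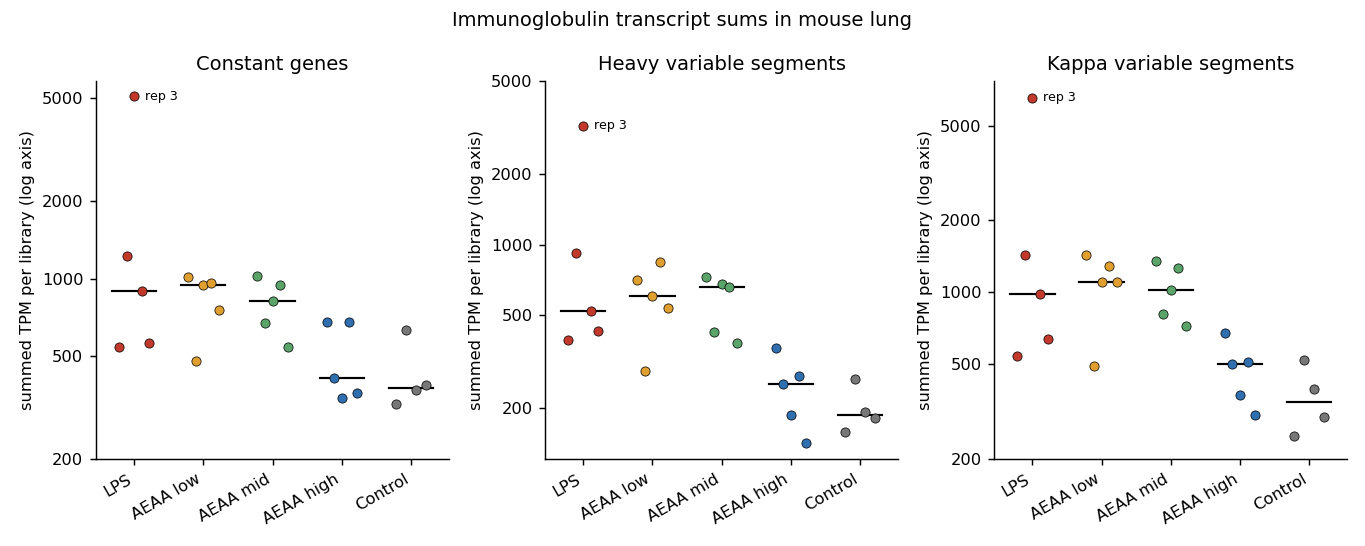
Summed TPM of the constant genes, the heavy variable segments and the kappa variable segments in each library, on a log axis, by group. Points are libraries and bars are group medians. LPS replicate 3 lies above all other libraries in each panel, at 5092, 3225 and 6530 TPM.

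Among the heavy constant genes, Igha led in most lungs and Ighm in 2. IgA was the largest share of the summed heavy constant level in 22 of the 24 libraries, and IgM in LPS replicate 3 and AEAA_low replicate 5. Igha had 129, 284, 103, 174 and 181 TPM in LPS lungs, 199, 88.5, 205, 305 and 107 TPM at the low dose, 228, 124, 189.9, 202 and 131 TPM at the mid dose, 182, 96.2, 64.2, 166 and 58.5 TPM at the high dose and 94.6, 140.1, 112 and 126 TPM in control lungs. All groups overlapped in Igha, and it did not pass the test in LPS against control lungs (0.48, SE 0.37, adjusted p = 0.272). Here and below, changes are on the log2(TPM + 1) scale, which understates the change of low genes, and p-values are from limma with Benjamini-Hochberg adjustment over all 17823 genes tested. The sign of the Igha difference turned after scaling (-0.18).

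Ighm had 79.1, 155, 1884, 159.6 and 54.6 TPM in LPS lungs, 115, 72.6, 87.2, 91.9 and 170.3 TPM at the low dose, 115, 91.1, 119, 165 and 75.9 TPM at the mid dose, 93.04, 68.1, 52.3, 83.1 and 47.8 TPM at the high dose and 32.9, 85.02, 58.3 and 30.7 TPM in control lungs. LPS replicate 3 was over 10 times the next library, and the other LPS libraries overlapped with control lungs. Ighm rose by 1.93 in LPS against control lungs (SE 0.64, adjusted p = 0.0141), and by 1.09 without LPS replicate 3 (adjusted p = 0.015). It did not pass after scaling (1.27, adjusted p = 0.134).

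Ighd had 19.03, 46.4, 6.85, 46.7 and 15.9 TPM in LPS lungs, 47.6, 25.3, 32.4, 18.7 and 11.4 TPM at the low dose, 33.96, 25.95, 19.8, 33.8 and 19.5 TPM at the mid dose, 33.5, 19.4, 15.7, 20.6 and 21.1 TPM at the high dose and 13.3, 30.2, 13.6 and 10.6 TPM in control lungs. LPS replicate 3 was thus the highest of all libraries in Ighm and the lowest in Ighd, with a ratio of IgM to IgD of 275 against 2.27 to 14.9 in the other 23 libraries. IgD took 0.327% of the heavy constant level there and 3.78 to 15.96% elsewhere.

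The IgG genes were low in most lungs and high in 2 LPS libraries. Ighg2b had 3.33, 65.4, 36.3, 4.58 and 4.33 TPM in LPS lungs, 5.47, 4.88, 11.5, 11.3 and 5.62 TPM at the low dose, 11.6, 5.11, 16.99, 8.95 and 4.84 TPM at the mid dose, 26.3, 3.69, 2.89, 3.19 and 1.18 TPM at the high dose and 2.54, 4.06, 1.46 and 4.59 TPM in control lungs. Ighg3 had 0.81, 31.1, 66.4, 0.46 and 0.51 TPM in LPS lungs, 0.78, 0.3, 0.3, 2.15 and 3.62 TPM at the low dose, 0.42, 1.06, 1.37, 1.79 and 0.48 TPM at the mid dose, 0.63, 0.39, 0.25, 0.44 and 0.46 TPM at the high dose and 1.54, 0.57, 7.6 and 0.33 TPM in control lungs. Ighg2c, the subclass that C57BL/6 mice carry in place of Ighg2a, had 3.65, 24.1, 1.79, 1.95 and 4.34 TPM in LPS lungs, 2.5, 1.19, 4.32, 4.69 and 3.31 TPM at the low dose, 0.95, 0.63, 2.89, 2.66 and 1.34 TPM at the mid dose, 1.51, 4.15, 1.69, 2.97 and 2.99 TPM at the high dose and 2.33, 2.75, 1.2 and 1.49 TPM in control lungs. LPS replicate 2 was high in all of these and held the highest Ighg2b and Ighg2c, whereas LPS replicate 3 held the highest Ighg3 and 1.79 TPM of Ighg2c. Ighg1 was 10.97 TPM in LPS replicate 2 and 2 TPM or less in every other library. Ighe, the gene of the allergy-linked class IgE, was 1.33 TPM in LPS replicate 2 and at most 0.19 TPM elsewhere, and it did not pass the filter. No IgG gene passed the test in any of the 5 comparisons. The IgG share of the heavy constant level was 3.54, 21.3, 5.003, 1.96 and 3.63% in LPS lungs, 2.65 to 4.91% at the low dose, 3.05 to 6.38% in mid-dose lungs, 2.54 to 8.63% at the high dose and 2.95 to 5.42% in control lungs.

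**Figure D2:**
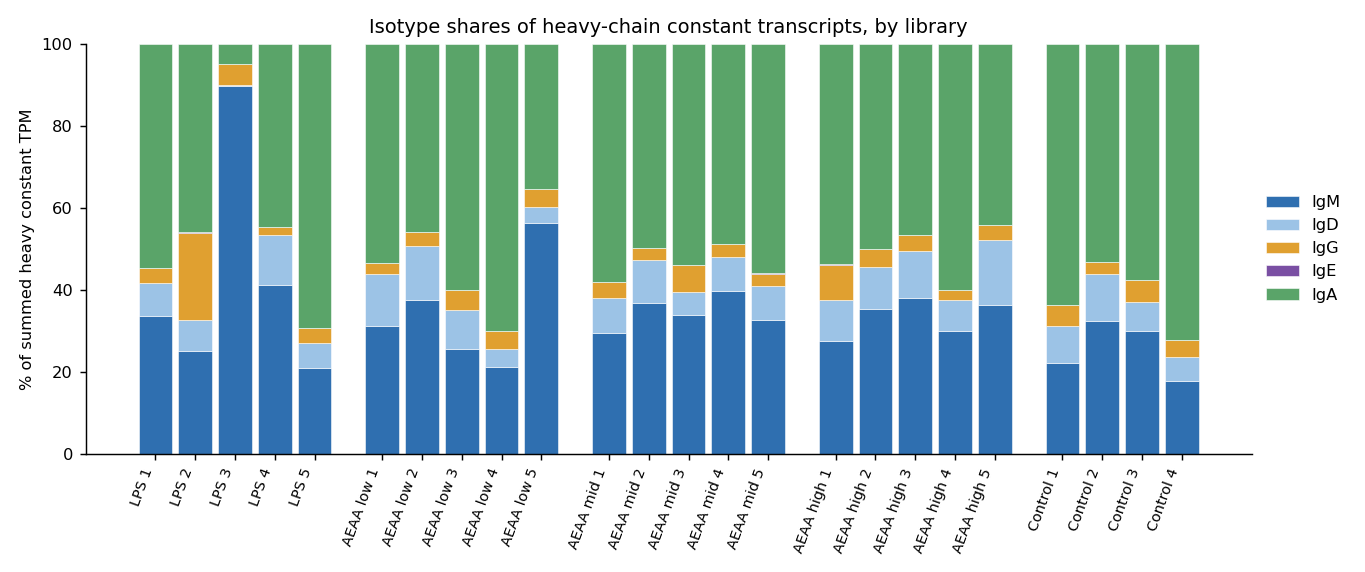
Share of each isotype in the summed TPM of the heavy constant genes, as stacked bars for each of the 24 libraries, by group. IgM takes 89.8% in LPS replicate 3 and 56.4% in AEAA_low replicate 5, and IgG takes 21.3% in LPS replicate 2.

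Kappa was the main light chain in every library. Igkc, the single kappa constant gene, had 257, 516, 2577, 419 and 266 TPM in LPS lungs, 521, 206, 507, 453 and 401 TPM at the low dose, 529.7, 361, 406, 451 and 273 TPM at the mid dose, 265, 177, 157, 321 and 169.5 TPM at the high dose and 115, 249, 138 and 174 TPM in control lungs. All LPS libraries lay above all control libraries, and the low, mid and high doses each overlapped with LPS. Igkc rose by 1.67 in LPS against control lungs (SE 0.48, adjusted p = 0.00472), by 1.10 without LPS replicate 3 (adjusted p = 0.00504) and by 1.01 after scaling, where it did not pass (adjusted p = 0.104). In high-dose against LPS lungs Igkc fell by 1.31 (SE 0.45, adjusted p = 0.0349). It did not pass with LPS replicate 3 left out (-0.73, adjusted p = 0.0726) and after scaling (-0.99, adjusted p = 0.166).

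The lambda constant genes were highest in LPS replicate 3. Iglc2 had 28.7, 44.2, 197, 47.6 and 18.4 TPM in LPS lungs, 63.3, 33.02, 38.7, 24.2 and 30 TPM at the low dose, 51.9, 39.3, 24.01, 38.5 and 19.8 TPM at the mid dose, 42.6, 20.3, 24.7, 40.96 and 30.04 TPM at the high dose and 24.3, 43.8, 21.8 and 15.1 TPM in control lungs. Iglc1 lay between 150.53 TPM in LPS replicate 3 and 6.2 TPM in Control replicate 3, and Iglc3 between 69.4 TPM in LPS replicate 3 and 4.91 TPM in AEAA_mid replicate 5. None of the 3 passed in any comparison. Kappa took 83.9, 84.7, 86.1, 82.6 and 87.6% of the light constant level in LPS lungs, 80.8, 71.5, 83.5, 85.5 and 87.9% at the low dose, 83.4, 84.5, 87.01, 85.3 and 87.99% in mid-dose lungs, 77.7, 80.96, 75.4, 79.8 and 74.1% at the high dose and 65.3, 67.9, 79.2 and 81.7% in control lungs. The LPS libraries lay above all control libraries, and the high-dose libraries lay below all LPS libraries. This share does not change with the scaling of a library.

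The variable segments were spread over many families, with Ighv1 leading the heavy and Igkv4 and Igkv1 the kappa segments. Ighv1, with 58 members, took 62.2% of the heavy variable level on average and 43.2 to 75.7% in single libraries. Igkv4, with 30 members, took 19.1% of the kappa variable level on average (12.1 to 31.1%), and Igkv1, with 8 members, took 17.5% (8.69 to 24.3%). Of the 222 variable members, 48 were above 0 in every library and 23 in 1 library only. Between 63 and 95 heavy segments were above 0 in an LPS library, 53 to 67 in a high-dose library and 50 to 60 in a control library, and the LPS and control groups did not overlap. Depth, which is unknown here, also bears on such counts. The 5 most abundant heavy segments of a library took 22.2 to 41.7% of its heavy variable level.

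The heavy segment with the highest mean level, Ighv1-34, had 39.4, 64.3, 67.1, 43.4 and 24.8 TPM in LPS lungs, 37.4, 10.4, 37.04, 61.2 and 25.3 TPM at the low dose, 42.2, 15.9, 33.5, 60.6 and 20.7 TPM at the mid dose, 16.1, 8.49, 13.2, 11.1 and 13.8 TPM at the high dose and 7.72, 16.2, 10.2 and 4.3 TPM in control lungs. All LPS libraries lay above all control libraries and above all high-dose libraries. Ighv1-55 had 26.7, 24.1, 256, 15.3 and 21.9 TPM in LPS lungs, 15.8, 21.3, 33.8, 51.02 and 18.8 TPM at the low dose, 21.3, 21.4, 21.3, 18.5 and 16.04 TPM at the mid dose, 7.22, 5.76, 3.58, 10.3 and 5.48 TPM at the high dose and 4.23, 6.74, 9.11 and 6.75 TPM in control lungs. It too was higher in each LPS library than in each control and high-dose library. Igkv10-96, the most abundant kappa segment, had 36.8, 162, 216, 76.2 and 32.6 TPM in LPS lungs, 211, 71.5, 73.8, 61.3 and 61.03 TPM at the low dose, 106, 124, 139, 86.1 and 77.2 TPM at the mid dose, 49.02, 31.4, 35.6, 21.2 and 16.4 TPM at the high dose and 11.97, 30.4, 30.3 and 17.8 TPM in control lungs. LPS lay above control throughout, and each low-dose library lay above each high-dose library. Igkv1-110 ranged between 20.6 TPM in AEAA_high replicate 1 and 363 TPM in LPS replicate 3, and Igkv1-117 between 14.3 TPM in Control replicate 2 and 380.3 TPM in LPS replicate 3. Ighv1-19 lay between 4.98 and 98.96 TPM, Ighv1-66 between 0.63 and 155 TPM. Iglv1, the leading lambda segment, had 48.7, 41.7, 729.6, 73.2 and 31.2 TPM in LPS lungs, 85.7, 61.5, 84.9, 118 and 42.6 TPM at the low dose, 73.03, 52.1, 84.1, 66.6 and 27.1 TPM at the mid dose, 37.4, 24.8, 25.9, 36.04 and 23.2 TPM at the high dose and 62.1, 93.3, 8.06 and 26.8 TPM in control lungs, and its near copy Iglv2 lay between 0.70 TPM in Control replicate 3 and 355 TPM in LPS replicate 3. Iglv3 stayed at or below 14.9 TPM in all libraries.

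**Figure D3:**
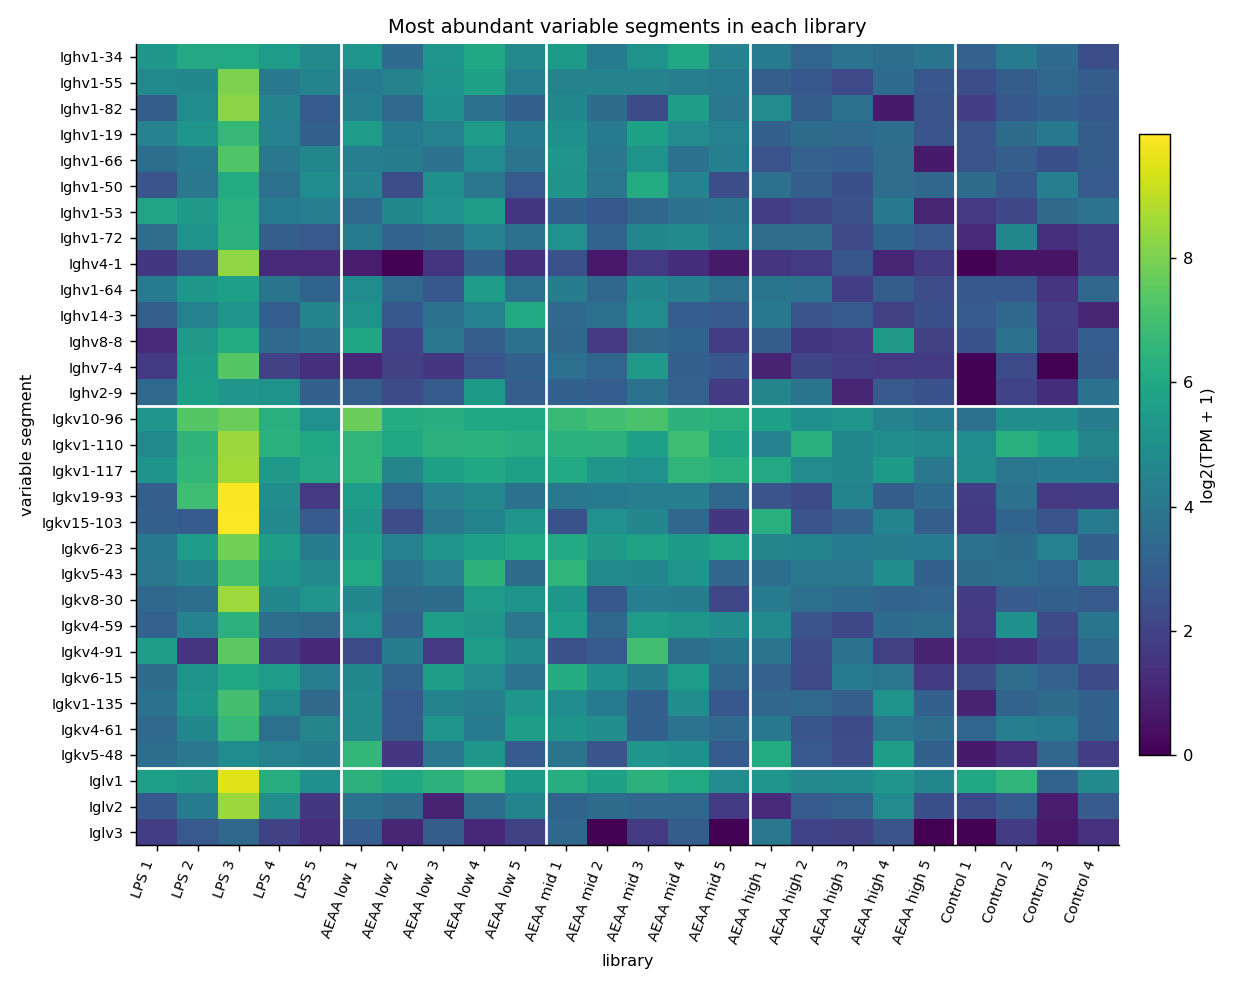
Level, as log2(TPM + 1), of the 14 heavy, 14 kappa and 3 lambda variable segments of highest mean TPM (rows) in each of the 24 libraries (columns, by group). Most rows are brightest in LPS replicate 3, where Igkv15-103 and Igkv19-93 reach 1018 and 990.1 TPM.

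In LPS replicate 3 the variable sums were high, and some single segments also took a larger share. The heavy and kappa sums were 3225 and 6530 TPM there, and at most 921 and 1440 TPM in the other 23 libraries. Gaps in the TPM of single segments include this rise. Igkv15-103 took 15.6% of the kappa variable level there and at most 11.6% elsewhere, and Igkv19-93 15.2% and 8.15%. Ighv4-1 took 10.1% of the heavy variable level there and at most 2.89% elsewhere. LPS replicate 3 was the highest library for 120 of the 234 members, and for 21 variable members it was at least 5 times the next library. Over all the other libraries, 7 variable members reached that ratio, 6 of them with a highest level of 1 TPM or more. Igkv15-103 had 7.29, 6.41, 1018, 24.8 and 6.48 TPM in LPS lungs, against 4.13 to 38.6 TPM at the low dose, 2.04 to 32.4 TPM at the mid dose, 5.04 to 78.5 TPM at the high dose and 2.23 to 16.9 TPM in control lungs. Igkv19-93 had 7.23, 117, 990.1, 28.7 and 2.14 TPM in LPS lungs, against 8.52 to 47.97, 9.48 to 18.6 and 3.86 to 21.97 TPM at the low, mid and high doses and 2.16 to 12.6 TPM in control lungs. Neither has a close copy among the members, with 74.79% and 78.67% identity to the nearest one. Ighv4-1 had 2.08, 4.5, 325, 1.34 and 1.26 TPM in LPS lungs and at most 7.5 TPM in any other group. Ighv1-82 had 6.71, 27.98, 307, 21.02 and 6.57 TPM in LPS lungs and at most 47.5 TPM in any other group. The germline ends of these 4 segments are among the sequences printed above.

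Among the 21 were segments known from innate-like B-1a cells of mice, named here after their values were seen. Ighv11-2 and Ighv12-3, used by B-1a cells that bind phosphatidylcholine, had 43.96 and 31.9 TPM in LPS replicate 3 and at most 3.85 and 2.98 TPM in the other 23 libraries. As a share of the heavy variable level, Ighv11-2 took 1.36% in LPS replicate 3, close to the 1.14% in AEAA_high replicate 3. Ighv12-3 took 0.99% in LPS replicate 3 and at most 0.452% elsewhere. Igkv14-126, a light segment that pairs with Ighv11-2 in such cells, had 226 TPM in LPS replicate 3 and at most 39.9 TPM elsewhere. Its family Igkv14 took 5.81% of the kappa variable level in LPS replicate 3 and 6.79% in Control replicate 1. Igkv4-91, known to pair with Ighv12-3, had 177 TPM in LPS replicate 3 and also 126 TPM in AEAA_mid replicate 3, where Ighv12-3 was listed at 0. It was the leading kappa segment of LPS replicate 1, with 8.55% of the kappa variable level. Its family Igkv4 took 13.25% in LPS replicate 3 and 27.67% in AEAA_mid replicate 3. Other libraries also held segments of their own, again picked after their values were seen. Ighv14-1 was 66.3 TPM in AEAA_low replicate 5, the other library in which IgM led, and at most 12.3 TPM elsewhere, and Igkv8-34 was 19.4 TPM in AEAA_mid replicate 3 and at most 2.1 TPM elsewhere.

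Other transcripts moved with the immunoglobulin genes in LPS replicate 3. The plasma cell genes Jchain, which links IgM and IgA into polymers, and Mzb1, a chaperone of antibody assembly, had 22.1, 68.8, 183, 36 and 21.98 TPM and 7.66, 11.9, 64.8, 6.14 and 4.95 TPM in the LPS libraries. Jchain and Mzb1 were named here after their values were seen. Pou2af1, a coactivator of immunoglobulin transcription, had 6.2, 9.96, 40.4, 10.8 and 4.11 TPM, and the proliferation gene Mki67 had 3.63, 4.53, 14.4, 4.42 and 3.81 TPM. The whole plasma cell list stood out less, with sums of 938, 925, 1246, 982 and 985 TPM. The B cell list summed to 168, 274, 311, 283 and 143 TPM. The B cell chemokine Cxcl13 had 114, 16.8, 366, 5.14 and 121 TPM. The summed level of 10 neutrophil genes was 1889, 2107, 12725, 620.4 and 2335 TPM, and the muscle actin Acta1 was 1990.3, 0.06, 1296, 0.33 and 0.69 TPM. Replicate 3 was the highest LPS library in all of these but Acta1, in which replicate 1 was higher with a constant sum of 542 TPM. Other lists were low there. The summed erythroid genes were 14276, 16550.03, 3459.8, 24230.2 and 12766 TPM in the LPS libraries, and replicate 3 was the lowest of all 24 libraries. The summed T cell genes were 92.4, 183, 79.1, 175 and 88.7 TPM, with replicate 3 the lowest LPS library. The part of these genes in the immunoglobulin levels was not tested.

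LPS was compared with control to see how the challenge without extract differed from no challenge. Of the 192 members that passed the filter (4 or more libraries at 1 TPM or above), 68 rose and 0 fell, against 56.2% of all 17823 genes that rose and 1.86% that fell. Without a fold threshold the members' share of increases was thus below that of all genes and is not a result about them. Of the members that rose, 31 were heavy and 34 kappa variable segments. The others were Ighm, Igkc and Gm43218, a variable segment without a systematic name on chromosome 6. The median log2 fold change was 1.22 over the members and 0.55 over all genes. After scaling, 16 members rose (8.33%, against 13.8% of all genes) and the medians were 0.89 and 0.00. Without LPS replicate 3, 39 members rose (20.3%, against 55.3% of all genes) and 1 fell, with medians of 0.82 and 0.56. Without Control replicate 1, 42 rose (21.9%, against 49.7%). For 21 members all LPS libraries lay above all control libraries, against 49.7% of all genes, and 0 lay below, against 1.48%. Called fold changes lay between 0.92 and 3.04, and 30 of the 68 calls were also made when each library of both groups was left out in turn.

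Ighv14-2 changed most, with 7.06, 5.32, 24, 9.45 and 8.74 TPM in LPS lungs and 0, 0, 1.67 and 0 TPM in control lungs. It rose by 3.04 (SE 0.59, adjusted p = 0.000146), and the groups did not overlap. Ighv14-2 is 97.15% identical to Ighv14-1, so reads could be split between them. Igkv8-27 had 21.3, 23.8, 39.2, 26.3 and 2.73 TPM in LPS lungs and 1.93, 3.06, 0 and 2.51 TPM in control lungs, and rose by 2.88 (SE 0.59, adjusted p = 0.000276). Igkv19-93 rose by 3.03 (SE 1.06, adjusted p = 0.0183), and it did not pass after scaling or when LPS replicate 3 was left out. The other largest called increases were those of Ighv2-9 (2.76), Igkv17-127 (2.65), Igkv4-51 (2.60), Ighv1-47, Ighv2-3 (2.50), Ighv1-80 (2.45) and Igkv5-48 (2.43). Of the 10 segments with the largest called change, 7 were also called after scaling and 8 without LPS replicate 3. Ighv1-47 had 3.6, 2.82, 27.99, 2.35 and 2.86 TPM in LPS lungs and was listed at 0 in each control library, so no fold is given for it (adjusted p = 0.00448). Ighv1-80 had 2.83, 4.25, 22.7, 5.4 and 5 TPM in LPS lungs and was listed at 0 in 3 control libraries, with 1.88 TPM in the other. Ighv1-34 and Ighv1-55, whose levels are given above, rose by 2.24 (SE 0.43, adjusted p = 0.000145) and 2.29 (SE 0.54, adjusted p = 0.000963).

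**Figure D4:**
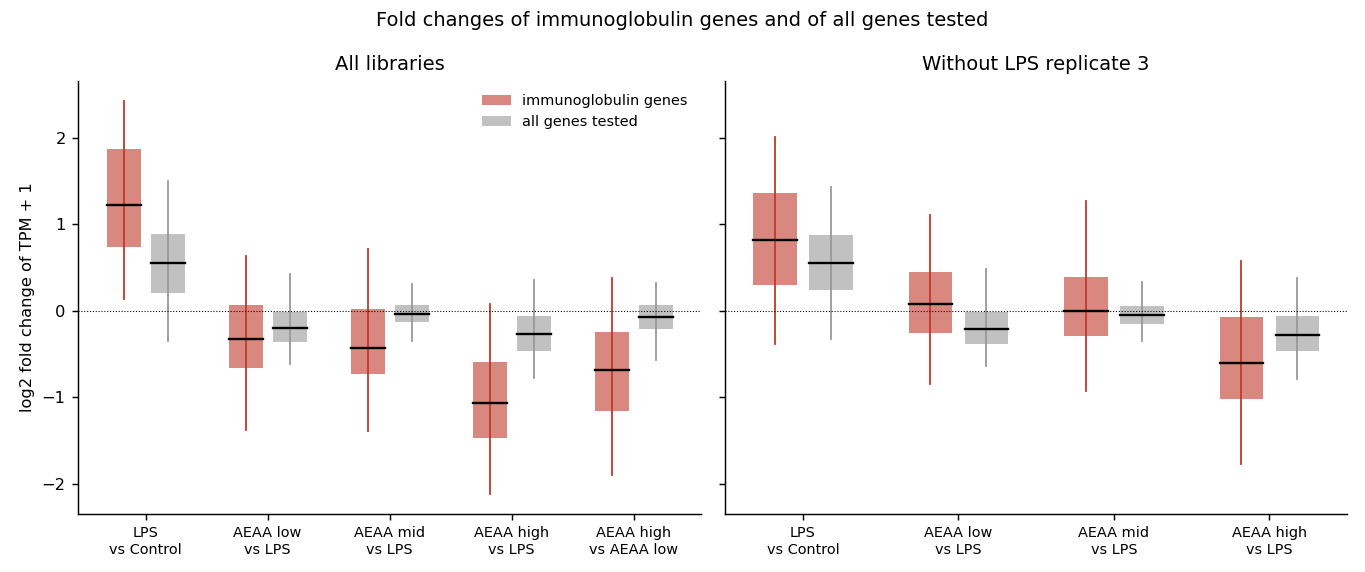
Spread of log2 fold changes of TPM + 1 in each comparison for the 192 immunoglobulin genes tested and for all 17823 genes tested, with all libraries (left) and without LPS replicate 3 (right). Boxes run between the 25th and 75th percentiles with the median as a line, and thin lines between the 5th and 95th. Without that library the immunoglobulin medians of the low and mid doses lie at 0.08 and -0.0044, and that of the high dose at -0.61.

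The doses were set against LPS to see how the extract changed the challenged lung. All 3 comparisons, and LPS against control, share the LPS libraries. At the low dose 0 members rose and 0 fell, against 1.23% and 9.38% of all genes, and at an unadjusted p of 0.05 the counts were 2 and 9. No member lay wholly below or above LPS at the low dose, against 8.92% and 1.15% of all genes. At the mid dose 0 rose and 0 fell, against 0% and 0% of all genes, and 0 and 10 at the unadjusted p. The members' median was -0.33 for the low and -0.43 for the mid dose, beside -0.20 and -0.04 over all genes. Without LPS replicate 3 the members' medians were 0.08 and -0.0044. The smallest p at the low dose belonged to Gm43218 (adjusted p = 0.0517), Igkv4-58 (-1.74, adjusted p = 0.054) and Ighv8-5 (adjusted p = 0.0606). Gm43218 was listed at 0 in all low-dose libraries and had 0, 3.04, 6.6, 0 and 1.38 TPM in LPS lungs. Ighv8-5 was also listed at 0 in all low-dose libraries and had 3.86, 9.73, 3.45, 0 and 0 TPM in LPS lungs. At the mid dose Ighv1-53 had 7.52, 5.78, 9.32, 12.3 and 13.96 TPM, against 56.5, 40.4, 78.3, 16.2 and 18.7 TPM in LPS lungs. It was the 1 member that was lower without overlap between these groups, against 0.151% of all genes (0 members and 0.107% were higher), and it did not pass (-1.82, adjusted p = 1).

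At the high dose 29 members fell and 0 rose, against 25.5% of all genes that fell and 2.05% that rose. The 29 of 192 (15.1%) are a smaller share than that of all genes. After scaling the order of the shares turned, with 9 members lower (4.69%) against 3.27% of all genes. The median was -1.07 over the members and -0.27 over all genes, and after scaling -0.84 and -0.01. Without LPS replicate 3 the members' median was -0.61 and 11 members fell (5.73%, against 23.8% of all genes). The count was also 13 without AEAA_high replicate 5 (6.77%, against 17.2%) and 16 without AEAA_high replicate 3 (8.33%, against 19.3%). It was 19 with LPS replicate 2 left out (9.9%, against 20.4%) and 45 with LPS replicate 5 left out (23.4%, against 21.4%). The members that fell were 13 heavy and 15 kappa variable segments and Igkc. For 9 members all high-dose libraries lay below all LPS libraries, against 9.47% of all genes, and 0 members lay above, against 0.516%. Called changes lay between -1.31 and -2.88, and 10 of the 29 calls were made without each library of both groups in turn.

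Ighv1-53 fell most, with 2.48, 3.37, 4.62, 15.5 and 1.07 TPM at the high dose and 56.5, 40.4, 78.3, 16.2 and 18.7 TPM in LPS lungs. The change was -2.88 (SE 0.66, adjusted p = 0.00428), with no overlap. Igkv3-1 was listed at 0 in all high-dose libraries and had 10.2, 3.85, 17, 2.42 and 1.12 TPM in LPS lungs (adjusted p = 0.00837). Ighv1-75 had 0.93, 2.58, 1.81, 0 and 1.64 TPM at the high dose and 3.2, 6.55, 36.6, 9.59 and 18.6 TPM in LPS lungs, and fell by 2.45 (SE 0.60, adjusted p = 0.00624). Ighv1-55 fell by 2.36 (SE 0.51, adjusted p = 0.00314) and Ighv1-34 by 1.79 (SE 0.41, adjusted p = 0.00428), both without overlap. Igkv8-19 (-2.63), Ighv1-80 (-2.23), Igkv10-94 (-2.23), Igkv4-53 (-2.15), Igkv4-68 (-2.14) and Ighv1-66 (-2.13) were the other largest called changes. Of these 10 segments with the largest called change, which do not include Ighv1-34, 6 were also called after scaling and 7 without LPS replicate 3. Ighv1-53, Ighv1-55 and Ighv1-80 are each 95.44% identical to another Ighv1 member, and Ighv1-75 is 96.3% identical to Ighv1-84. Ighm was not called at the high dose (-1.44, adjusted p = 0.0811), nor was Igha (-0.68, adjusted p = 0.148).

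The high dose was also compared with the low dose. The LPS libraries do not enter this difference, but they share the estimate of the spread behind its p-values. There 0 members rose and 0 fell, against 0% and 0.00561% of all genes, and at an unadjusted p of 0.05 the counts were 0 and 32, or 1 and 51 with only these groups in the fit. The median was -0.69 over the members and -0.07 over all genes, and -0.61 and 0.01 after scaling. For 8 members all high-dose libraries lay below all low-dose libraries, against 1.21% of all genes, and 0 lay above, against 0.292%. They were Ighv1-19, Ighv1-55, Ighv1-66, Ighv1-75, Igkv10-96, Igkv3-2, Igkv8-24 and Iglv1. The smallest p belonged to Ighv1-15 (-2.65, adjusted p = 0.187), Ighv1-55 (-1.90, adjusted p = 0.214) and Igkv10-96 (-1.52, adjusted p = 0.299). Ighv1-15 had 2.48, 0, 1.16, 0 and 5.33 TPM at the high dose and 28.6, 1.1, 5.91, 49.2 and 20.7 TPM at the low dose.

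The balance of variable to constant transcripts differed between groups. The ratio of the summed heavy variable level to the summed heavy constant level was 1.66, 1.49, 1.54, 1.34 and 1.64 in LPS lungs, 1.903, 1.49, 1.78, 1.93 and 1.78 at the low dose, 1.85, 1.704, 1.93, 1.59 and 1.62 in mid-dose lungs, 1.07, 1.32, 1.37, 0.991 and 1.07 at the high dose and 1.07, 1.01, 0.987 and 1.04 in control lungs. All LPS libraries lay above all control libraries, and all high-dose libraries lay below all low-dose and mid-dose libraries. High-dose and LPS libraries overlapped, with AEAA_high replicate 3 at 1.37 and LPS replicate 4 at 1.34. LPS replicate 3, at 1.54, lay within the range of the other LPS libraries. The ratio does not change with the scaling of a library, and no test was run on it. Variable and constant transcripts differ in length, and the part of transcript length was not tested. The kappa ratio of variable to constant level overlapped between all groups, at 2.11 to 2.79 in LPS, 2.17 to 2.83 at the low dose, 2.25 to 2.81 at the mid dose, 1.59 to 2.82 at the high dose and 1.72 to 2.84 in control lungs.

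**Figure D5:**
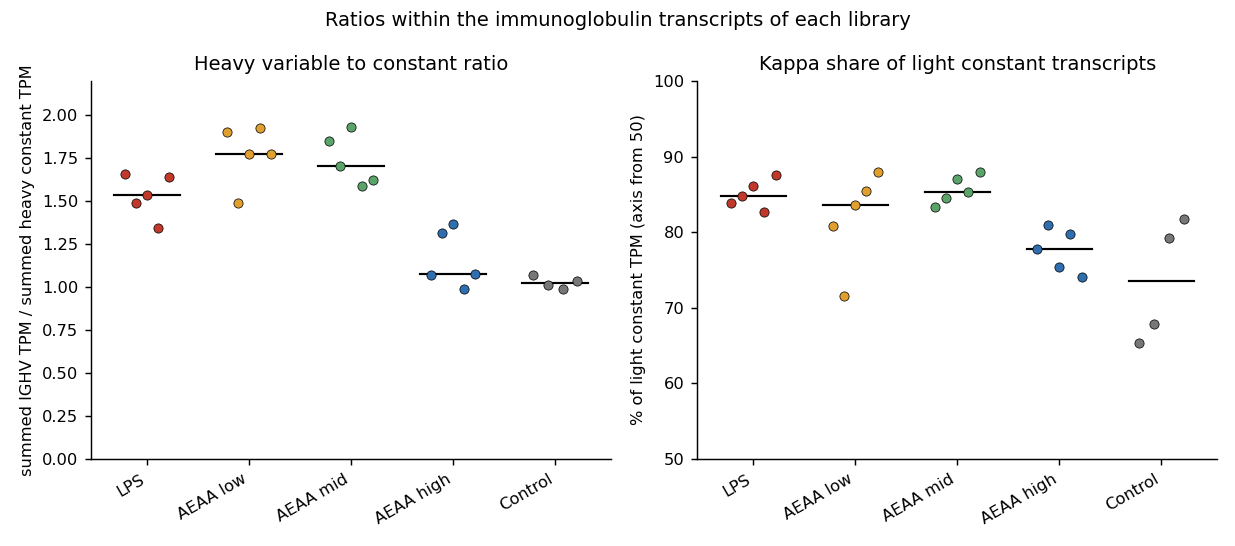
Left, the summed TPM of heavy variable segments divided by that of heavy constant genes; right, the kappa share of the summed light constant TPM in percent, on an axis that starts at 50. Points are libraries and bars are group medians. Control libraries lie at 0.987 to 1.07 on the left and LPS libraries at 1.34 to 1.66.

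Genes of the cells that make antibodies were set beside these levels. Counts of each list are read against all genes, of which 56.2% rose in LPS against control lungs (13.8% after scaling, when 14.2% fell) and 25.5% fell at the high dose. After scaling 3.27% of all genes fell at the high dose and 5.67% rose. At the low dose, without scaling, 9.38% of all genes fell and 1.23% rose. Of 20 B cell genes tested, 11 rose and 0 fell in LPS against control lungs, a share close to that of all genes. Their median log2 fold change was 0.85, beside 0.55 over all genes. After scaling 2 rose, and without LPS replicate 3, 9 rose. Their summed level was 143 to 311 TPM in LPS lungs, 161 to 316 TPM at the low dose, 172 to 248 TPM at the mid dose, 121 to 214 TPM at the high dose and 76.2 to 179.8 TPM in control lungs. Cd79b, a signalling chain of the B cell receptor, had 31.1, 44.96, 50.4, 54.1 and 27.1 TPM in LPS lungs and 19.2, 35.98, 18.8 and 15.7 TPM in control lungs (0.88, adjusted p = 0.0094). Cd79a, its partner, did not pass (0.87, adjusted p = 0.0625). The largest called increase of the list was that of Fcer2a, at 1.48 to 2.22 with single libraries left out. At the high dose Fcer2a was not called (0.17, adjusted p = 0.765). Cd22, an inhibitory receptor of B cells, rose by 1.59 in LPS against control lungs (adjusted p = 0.000494), and Spib, a transcription factor of B cells, by 1.75 (adjusted p = 2.27e-06). At the high dose 0 B cell genes rose and 3 fell: Cd22 by 1.11 (adjusted p = 0.0167), Spib by 0.72 (adjusted p = 0.0218) and Ebf1, an early B cell factor, by 0.66 (adjusted p = 0.0207). The 3 of 20 are a smaller share than the 25.5% of all genes, and none passed after scaling.

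Of 16 plasma cell genes tested, 11 rose and 0 fell in LPS against control lungs, and after scaling 1 rose and 1 fell, against 56.2%, 13.8% and 14.2% of all genes. Their median was 0.76. The largest called increases were those of Derl3, a factor of protein disposal in the endoplasmic reticulum (1.96, adjusted p = 8.74e-05), Pou2af1 (1.33, adjusted p = 0.00539) and Xbp1, the driver of secretory capacity (1.18, adjusted p = 9.62e-06). Jchain and Mzb1 were not called in this comparison (0.55, adjusted p = 0.379, and 0.94, adjusted p = 0.095). At the high dose 3 of 16 fell, against 25.5% of all genes: Derl3 by 1.19 (adjusted p = 0.0151), Irf4 by 0.85 (adjusted p = 0.0212) and Txndc5 by 0.34 (adjusted p = 0.00665). After scaling 0 fell and 3 of the 16 rose, against 3.27% and 5.67% of all genes. At the low dose Derl3 was the 1 plasma cell gene that fell (adjusted p = 0.0271), against 9.38% of all genes. It did not pass after scaling or with LPS replicate 3 left out.

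Of 6 tested genes of the germinal centre and class switch, 5 rose in LPS against control lungs, 2 after scaling, against 56.2% and 13.8% of all genes. Their median was 0.89. S1pr2 rose by 1.22 (adjusted p = 1.98e-06), Fas by 1.09 (adjusted p = 0.00115) and Apex2 by 0.89 (adjusted p = 2.37e-05). Bcl6, the master regulator of germinal centre B cells that other cells also express, fell by 0.74 at the high dose (adjusted p = 0.00103) and by 0.58 at the low dose (adjusted p = 0.0123), both without overlap with LPS. Apex2 (-0.52, adjusted p = 0.0101) and S1pr2 (-0.48, adjusted p = 0.0259) also fell at the high dose, so 3 of 6 fell there, against 25.5% of all genes, and 1 after scaling. The low-dose call of Bcl6 was not made after scaling. Of 10 tested genes of mucosal antibody transport and B cell homing, 6 rose in LPS against control lungs, 1 after scaling, and 2 fell at the high dose. These shares lie near the 56.2% and 25.5% of all genes. Their median was 0.96 in LPS against control lungs. Cxcl13 rose by 3.70 (SE 1.21, adjusted p = 0.012) in LPS lungs, and Ccl19, which draws lymphocytes, by 1.36 (adjusted p = 0.0179). Tnfrsf13b was the next largest called increase. Those that fell at the high dose were Tnfsf13b and Ltbr (-0.39, adjusted p = 0.033). At the low dose 1 of the 10 rose (Lta) and 1 fell (Ltbr), against 1.23% and 9.38% of all genes. Neither was called at the low dose after scaling or without LPS replicate 3. Pigr, which carries IgA and IgM across epithelia, had 195, 40.8, 56.3, 27.1 and 163 TPM in LPS lungs and 33.01, 31.5, 36.8 and 43.1 TPM in control lungs and did not pass (adjusted p = 0.188). Of 2 tested genes of early B cells, 1 rose and Vpreb3 fell, with 17.8, 22.8, 23.3, 23.6 and 21.3 TPM in LPS lungs and 115, 83.7, 111 and 113 TPM in control lungs (-2.22, SE 0.33, adjusted p = 8.11e-06). The surrogate light chain gene Igll1 and the recombinase gene Rag1 were at most 0.18 and 0.33 TPM in any library. Of 10 Fc receptor genes tested, 8 rose in LPS against control lungs (2 after scaling), against 56.2% and 13.8% of all genes, and 0 passed at any dose. Among other cell types, 5 of 12 T cell genes and 9 of 10 neutrophil genes rose in LPS against control lungs, 1 and 8 after scaling, against the same shares of all genes. Of the thymus genes 0 of 2 rose, of the skeletal muscle genes 1 of 4, of the erythroid genes 2 of 6 and of the lung tissue genes 2 of 7, with 1 lung gene lower. The part of cell numbers in these levels was not tested.

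The 42 members that did not pass the filter reached at most 19.4 TPM (Igkv8-34), and 38 of them reached 1 TPM in at least 1 library. A member could pass the filter through a single group in which it was high, so the filter can favour members that differ. The counts above cover the 192 members tested and not the whole set. Of the 20 pseudogenes above 0, 1 was tested. Near-identical copies were common: 48 of 103 heavy and 42 of 95 kappa variable members with a coding sequence had another member of the locus at 95% identity or more. The levels of single segments are therefore less certain than the sums over a family or a locus.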

How the data were processed

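Whole-lung total RNA depleted of ribosomal RNA was sequenced from 24 mice, labelled as biological replicates. The deposited values are TPM with 2 decimals, which the authors computed per gene; HISAT2, StringTie, RSEM, DESeq2 and GRCm39 are named in the submitters' processing notes, while versions, the annotation release and the sharing of reads between similar genes are not given in the sources used here. Depth is therefore unknown, and no counting interval is given.

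Members were the rows with an immunoglobulin biotype and a TPM above 0 in at least 1 library. The members and gene lists were chosen with earlier results of these data known. Differences were tested with limma 3.58.1 (R 4.3.3; trended, robust) on log2(TPM + 1) over genes at 1 TPM or more in at least 4 libraries, with all 5 groups in the fit, no covariate and an adjusted p threshold of 0.05 (Benjamini-Hochberg, all genes tested). The script was tested on simulated data. The 5 comparisons were LPS against control, each dose against LPS, and the high against the low dose. Sums, shares and ratios over members carry no test. Sequences and positions came from GENCODE M21 (GRCm38), matched by identifier, and identity was computed by global alignment.

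Genes were named by a rule: constant genes with a mean of 1 TPM or more, the 5 most abundant variable segments of each locus, the 10 largest called changes per comparison or the 3 of smallest p where none was called, and, in the B cell, plasma cell, germinal centre and mucosal lists, the 3 most abundant genes and the 3 largest called changes. Some genes under the rule, such as Ssr4, Sdc1 and Ccl21a, are not described. Names outside the rule were added after values were seen. Alternatives covered scaling, the filter, the pseudocount, a fold threshold, the groups in the fit, a replicate block, quality weights and leaving out each library.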

Additional observations from a re-analysis of the deposited data

Results flagged for a closer look

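In each group, the highest or lowest library was checked for a gap to its nearest neighbour that is large for the group's range (Dixon's criterion at 95%). Of 275 such checks 51 were positive, and 22 of the 51 fell in LPS replicate 3. A rate of 5% would be 13.8 checks, but this is not what chance gives here. The criterion assumes normal values and was applied to untransformed TPM. Most of the genes checked were also named for high levels or large changes in these same data. The checks share libraries and transcripts, so they are not independent.

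LPS replicate 3 was the highest LPS library in the constant sum (5092.39 TPM) and in the heavy (3225.11 TPM), kappa (6530.33 TPM) and lambda (1094.41 TPM) variable sums. Its ratio of IgM to IgD was 275.01. Among its constant genes, Ighm was 1883.83 TPM, Igkc 2576.72 TPM, Iglc2 197.46 TPM and Iglc1 150.53 TPM. Among its heavy segments, Ighv1-82 was 307.24 TPM, Ighv1-55 256.35 TPM, Ighv1-66 155.07 TPM, Ighv1-47 27.99 TPM, Ighv14-2 24 TPM and Ighv1-80 22.73 TPM. Among its light segments, Igkv15-103 was 1017.82 TPM, Igkv19-93 990.11 TPM, Iglv1 729.62 TPM, Igkv1-117 380.29 TPM, Igkv1-110 362.67 TPM, Iglv2 355.47 TPM and Igkv4-51 60.69 TPM.

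LPS replicate 2 was the highest LPS library in the IgG share (21.26%), Ighg2c (24.07 TPM) and Ighg1 (10.97 TPM).

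At the low dose, Igkv10-96 stood apart in replicate 1 (211.47 TPM) and Igkv3-1 in replicate 3 (9.63 TPM). Replicate 4 stood apart in Ighv2-9 (42.71 TPM), Ighv1-75 (18.85 TPM) and Igkv4-58 (1.02 TPM), and replicate 5 in the ratio of IgM to IgD (14.92). At the mid dose, Gm43218 stood apart in replicate 2 (1.26 TPM), the IgG share (6.38%) and Igkv4-53 (39.17 TPM) in replicate 3, and Ighv8-5 in replicate 5 (2.53 TPM), which was also the lowest in Iglv2 (2.28 TPM). At the high dose, replicate 1 stood apart in Ighg2b (26.26 TPM) and Igkv15-103 (78.46 TPM), replicate 2 in Igkv1-110 (80.09 TPM), and replicate 3 in Igkv17-127 (11.52 TPM) and Ighv1-80 (6.93 TPM). Replicate 4 of the high dose stood apart in Iglv2 (26.9 TPM), Ighv1-53 (15.5 TPM) and Gm43218 (1.06 TPM).

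Among control lungs, replicate 1 stood apart in Igkv1-117 (29.5 TPM), replicate 2 in Ighd (30.21 TPM), Igkv19-93 (12.55 TPM) and Ighv8-5 (0.78 TPM), replicate 3 in Ighg3 (7.6 TPM) and Ighv14-2 (1.67 TPM), and replicate 4 in Ighv1-80 (1.88 TPM).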

How the results depend on the processing

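The median log2 difference of all genes in LPS against control lungs was 0.55, and it was 0.00 after median-of-ratios scaling. The count of members that rose in LPS against control lungs was 68 (35.4%, against 56.2% of all genes). It was 16 with that scaling (8.33%, against 13.8%) and 14 with upper-quartile scaling (7.29%, against 11.6%). It was 37 with Scgb1a1 left out (19.3%, against 31%) and 43 without a filter (18.4%, against 21.9%). With only the compared groups in the fit it was 43 (22.4%, against 56.3%). Without LPS replicates 2 and 3, an alternative chosen after seeing the data, it was 22 (11.5%, against 50.4%). With single libraries left out it lay between 39 (20.3%, against 55.3%) and 78 (40.6%, against 55%). The count that fell was 0, against 1.86% of all genes. It was 1 (0.521%) with a pseudocount of 0.1, with only the compared groups and with quality weights, against 1.72, 2.58 and 3.61%. With single libraries left out it was 0 to 1. At the high dose 29 fell (15.1%, against 25.5% of all genes). The count was 9 with median-of-ratios scaling (4.69%, against 3.27%) and 9 with upper-quartile scaling (4.69%, against 3.75%). It was 10 without a filter (4.27%, against 6.99%) and 10 with only the compared groups (5.21%, against 10.3%). Without LPS replicates 2 and 3 it was 5 (2.6%, against 16.1%). With single libraries left out it lay between 11 (5.73%, against 23.8%) and 45 (23.4%, against 21.4%). At the low dose 0 fell, against 9.38% of all genes, and 2 with quality weights (1.04%, against 17.4%). With single libraries left out it was 0 to 2. In the high against the low dose 0 fell, against 0.00561% of all genes, and 9 with quality weights (4.69%, against 3.89%). The cause of these shifts was not tested.

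The deviations of same-numbered replicates had correlations of -0.447 to 0.645, with both signs. In the extract groups all libraries with low Cxcl2 were numbered 1 or 4, and in the LPS group 2 or 4. These values do not decide whether the numbers pair the samples. With the replicate number as a block, 76 members rose in LPS against control lungs (39.6%, against 56.9% of all genes). At the high dose 30 fell (15.6%, against 25.4%), and at the low dose 1 fell (0.521%, against 8.02%).

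The difference between group means of the log2 constant sum, which is not the log2 ratio of the mean sums, lay between 0.88 and 1.69 in LPS against control lungs with single libraries left out, -0.73 and 0.08 for the low, -0.77 and 0.04 for the mid and -1.50 and -0.69 for the high dose, each set against LPS, and -0.95 and -0.66 in the high against the low dose. Without LPS replicate 3 it turned to 0.082 at the low dose and to 0.0378 at the mid dose.

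The other reversals, 27 in all, were of constant genes that were not called. In LPS against control lungs they were Igha (-0.18 with median-of-ratios and -0.26 with upper-quartile scaling), Ighd (-0.18 and -0.25 with these), Iglc3 (-0.026 and -0.095, and -0.21 without LPS replicates 2 and 3) and Iglc1 (-0.19 and -0.26, -0.17 without LPS replicate 3, -0.05 when the third control library was left out, up to 0.91 when the second was, and -0.31 without LPS replicates 2 and 3). Ighg1 turned to -0.12 without LPS replicate 2 and to -0.14 without LPS replicates 2 and 3, with a highest single-library value of 0.69, and Ighg3 to -0.71 without both. In high-dose against LPS lungs, Ighd turned to 0.28 and 0.25 with the scalings, 0.0067 with Scgb1a1 left out, 0.25 without LPS replicate 2, 0.25 without LPS replicate 4, 0.01 without AEAA_high replicate 2 and 0.09 without AEAA_high replicate 3, and its lowest value was -0.40 with LPS replicate 3 left out. Iglc3 turned to 0.006 with median-of-ratios scaling, 0.19 without LPS replicate 3 and 0.52 without LPS replicates 2 and 3, where Ighg2b was 0.094 and Iglc2 0.054. Of the other values of single genes, 1347 kept their direction and side of the threshold, 200 lost a call and 25 gained one. Depth is unknown, so what it limits cannot be given.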
